A study of Mus musculus with 12 samples.

Results

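The galectin family was followed in the livers of 12 male C57BL/6 mice through 7 genes, Lgals1, Lgals2, Lgals3, Lgals4, Lgals8, Lgals9 and Lgals3bp, out of 22180 genes with a single array symbol. Genes were chosen by symbol, and the probe set of a gene was selected on its mean signal over all arrays, the highest being taken among probe sets with that symbol alone. This choice mattered for 1 member, Lgals3bp, which had a second probe set. The list itself was proposed with results of these data known, so the differences of its members are not independent of the choice. It leaves out part of the family. The other galectin and galectin-related genes are given at the end.

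The groups were AHNAK KO mice fed a high fat diet (KO HFD), wildtype mice on the same diet (WT HFD), AHNAK KO mice fed regular chow (KO chow) and wildtype mice on chow (WT chow), with 3 mice each, 1 array per mouse, and 8 weeks on the diet. The high fat diet held 60% fat, 20% carbohydrate and 20% protein. Ahnak codes for a giant scaffold protein that binds membranes and actin. The sources used here do not say how the allele was made or how old the mice were. The labels give 1 mouse and a replicate number for each array, and the design text calls the replicates biological.

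Log2 signals of 41345 probe sets were read on each array, with array medians between 5.58 and 5.7 and correlations across genes of 0.992 to 0.994 within a group. Across genes, which are not independent replicates, the WT HFD livers stood apart: on a first principal component with 32.2% of the variance they lay at 30.0 to 32.3, and the other 9 arrays at -18.5 to -3.95. As these are all the WT HFD arrays, the comparisons that use this group cannot be made without them. Among the other 9 arrays, KO HFD lay at -18.5 to -14.4. They were apart from KO chow, at -11.6 to -3.95, and WT chow, at -10.5 to -4.46. Ahnak itself was read by 1 probe set, with signals of 6.46 to 6.62 in KO HFD, 6.74 to 7.26 in WT HFD, 6.38 to 6.74 in KO chow and 6.50 to 6.83 in WT chow. The deleted part of the gene is not stated in the labels, so this probe set does not check the genotypes. Hepatocyte markers such as Alb and Ttr were high in every group, with a mean over 5 markers of 13.18 to 13.25 in KO HFD, 13.11 to 13.16 in WT HFD, 13.21 to 13.26 in KO chow and 13.16 to 13.22 in WT chow.

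Galectins are lectins that bind sugars ending in beta-galactose through a conserved carbohydrate recognition domain. They are made in the cytosol without a signal peptide, and they act both inside the cell and, after leaving it by a route outside the classical secretory pathway, on glycans of the cell surface and matrix. Prototype galectins such as galectin-1 and galectin-2 have a single recognition domain and form dimers, galectin-3 joins its domain to a long N-terminal tail, and tandem-repeat galectins (galectin-4, galectin-8 and galectin-9) carry a pair of different domains on a linker. In liver, galectin-3 is best known as the macrophage antigen Mac-2, and galectin-1 and galectin-3 are studied in activated stellate cells and fibrosis.

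Promoter sequences from RefSeq (build GRCm38.p6), from 250 bases before to 50 bases after a start of transcription, were found for 6 of the 7 members, all but Lgals1. Those of Lgals3, Lgals4 and Lgals8 are shown, 5′ to 3′ along the gene's strand, because these genes differed between KO and WT livers on HFD, Lgals3 in one direction and Lgals4 and Lgals8 in the other. Capitals mark matches, on either strand, to GGGCGG (the GC box), CCAAT (the CCAAT box), TATAAA (the TATA box) or TGANTCA (the AP-1 site).
Lgals3, chr14:47373610-47373909, plus strand: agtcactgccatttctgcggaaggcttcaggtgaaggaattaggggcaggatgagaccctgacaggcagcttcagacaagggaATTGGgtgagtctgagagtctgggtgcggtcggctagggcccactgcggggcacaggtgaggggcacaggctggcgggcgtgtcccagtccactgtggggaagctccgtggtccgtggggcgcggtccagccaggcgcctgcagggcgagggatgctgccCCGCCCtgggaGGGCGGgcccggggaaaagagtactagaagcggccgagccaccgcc
Lgals4, chr7:28833544-28833843, plus strand: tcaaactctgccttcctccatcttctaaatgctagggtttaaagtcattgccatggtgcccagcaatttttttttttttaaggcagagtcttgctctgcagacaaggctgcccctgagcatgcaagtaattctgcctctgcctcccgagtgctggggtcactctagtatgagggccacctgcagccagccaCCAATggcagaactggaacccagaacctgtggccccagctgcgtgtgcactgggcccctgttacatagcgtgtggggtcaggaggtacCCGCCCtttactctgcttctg
Lgals8, chr13:12461689-12461988, minus strand: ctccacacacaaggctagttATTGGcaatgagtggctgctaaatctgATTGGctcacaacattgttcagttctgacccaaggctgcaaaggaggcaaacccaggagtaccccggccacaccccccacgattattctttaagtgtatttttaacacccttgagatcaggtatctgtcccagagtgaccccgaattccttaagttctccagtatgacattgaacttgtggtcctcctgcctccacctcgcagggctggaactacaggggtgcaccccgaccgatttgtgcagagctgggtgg
In these windows, Lgals3 held a pair of GC boxes on either side of its start and 1 CCAAT box, Lgals4 held 1 GC box and 1 CCAAT box, and Lgals8 held 2 CCAAT boxes. No match overlapped another. The GC box letters occurred in 35.7% of the 32851 promoters in the RefSeq table, and the CCAAT letters in 37.4%. TATAAA occurred in 13.6% and TGANTCA in 7.81% of all promoters, and neither occurred in the 6 member promoters. A match in this window is a description and was not tested as a binding site.

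The first comparison asks how KO and WT livers differed on the high fat diet. Of the 7 members, 2 fell and 2 rose in KO HFD livers and 3 did not pass the test, which was a limma fit over all genes with a Benjamini-Hochberg adjusted p under 0.05. Over all 22180 genes 10.5% passed in this comparison, 3.89% higher and 6.62% lower in KO. Lgals1 had by far the largest difference in the family, a 10.4-fold lower signal in KO. Lgals3 was lower by 1.42-fold, and Lgals4 and Lgals8 were higher by 1.48-fold and 1.45-fold. The median log2 difference over the members was 0.02, and over all genes it was 0.00.

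**Figure D1:**
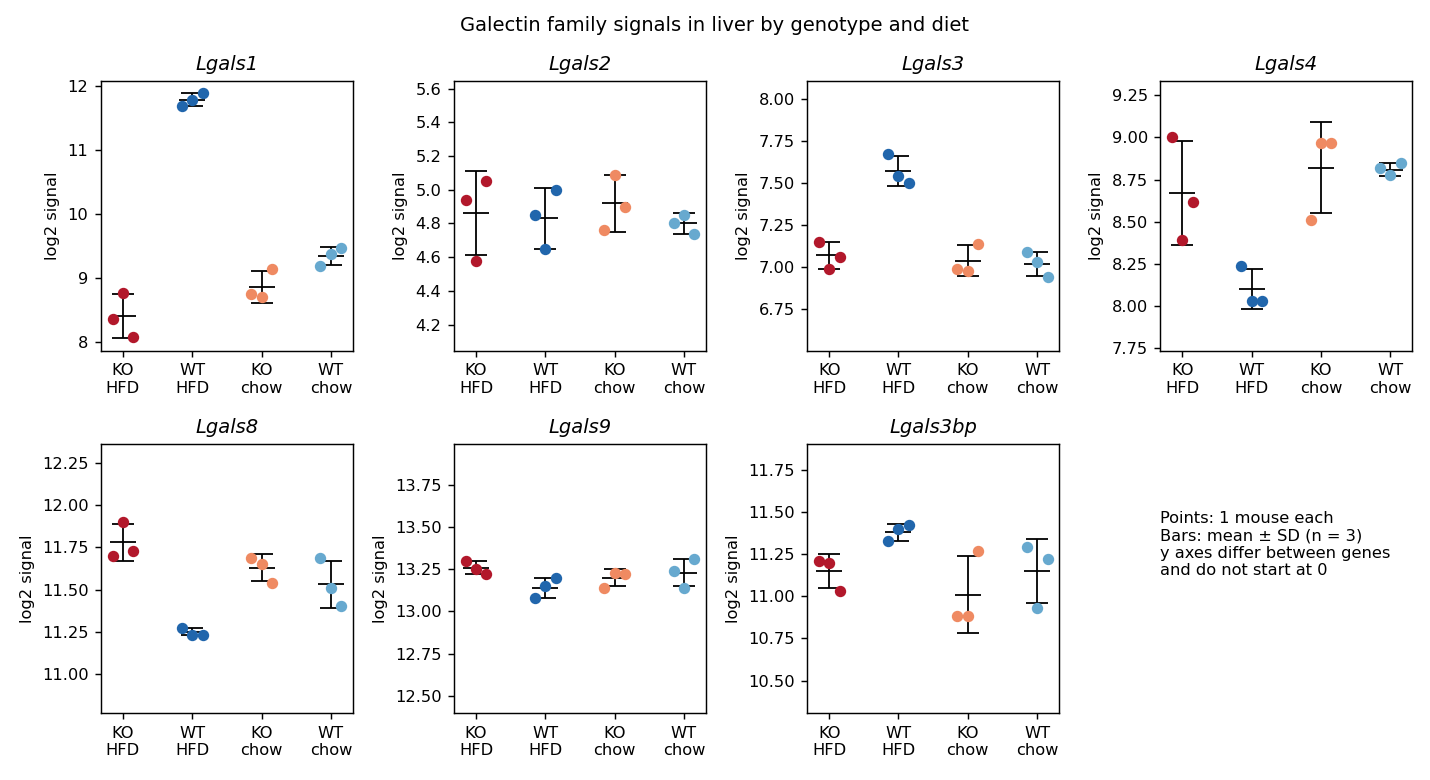
Log2 signal (y axis, own scale per gene) of the 7 members on every array in the 4 groups (x axis), 1 point per mouse, with bars for the mean and SD of 3 mice. Lgals1 sits at 11.68 to 11.88 in WT HFD, above all other arrays, which lie between 8.07 and 9.47.

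Lgals1 encodes galectin-1, a prototype galectin of stromal, endothelial and immune cells. Its log2 signals were 8.36, 8.76 and 8.07 in KO HFD livers, 11.68, 11.78 and 11.88 in WT HFD livers, 8.74, 8.69 and 9.14 in KO chow livers, and 9.18, 9.37 and 9.47 in WT chow livers. The WT HFD arrays were high and the other 9 were low, with a gap of 2.92 between the nearest KO and WT arrays on HFD. The KO minus WT difference on HFD was -3.38 ± 0.17 (SE of the fit, adjusted p = 6.03e-07), the 10th largest fall among all genes. On chow the difference was -0.49 ± 0.17, with a 95% interval of -0.85 to -0.12 and an adjusted p of 0.58. All KO chow arrays lay below all WT chow arrays, by 0.05 at the nearest, but 13.2% of all genes showed such a separation on chow.

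The diet response of Lgals1 differed between the genotypes. In KO livers HFD minus chow was -0.46 ± 0.17 (adjusted p = 0.47), and the arrays of the 2 diets overlapped. In WT livers HFD minus chow was 2.44 ± 0.17 (adjusted p = 7.63e-06), a 5.44-fold higher signal on HFD and the 16th largest rise among all genes. The interaction, the KO minus WT difference on HFD minus that on chow, was -2.90 ± 0.24 (adjusted p = 6.52e-05). By their means the groups were ordered KO HFD (8.40 ± 0.35, SD, n = 3), KO chow (8.85 ± 0.25), WT chow (9.34 ± 0.14) and WT HFD (11.78 ± 0.10). Only the step between WT chow and WT HFD passed among neighbours in this order. The Lgals1 comparisons on HFD and within WT share the WT HFD arrays and are therefore not independent of each other.

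Lgals2, the other prototype member, encodes galectin-2, which is known mainly from the gut epithelium. Its signals were low in every group, at 4.58 to 5.05 in KO HFD, 4.65 to 5.0 in WT HFD, 4.76 to 5.09 in KO chow and 4.74 to 4.85 in WT chow. For scale, 95% of the 1105 olfactory receptor genes, which liver is not known to use, had a mean under 5.61, so Lgals2 was within the range of background. Its KO minus WT difference was 0.02 on HFD (95% interval -0.27 to 0.32) and 0.13 on chow (-0.17 to 0.42). Near the background an array compresses differences, so these intervals limit the signal more than the transcript.

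Lgals3 encodes galectin-3, a marker of macrophages that is also made by activated stellate cells. Its signals were 7.15, 6.99 and 7.06 in KO HFD livers, 7.67, 7.54 and 7.50 in WT HFD livers, 6.99, 6.98 and 7.14 in KO chow livers, and 7.09, 7.03 and 6.94 in WT chow livers. As with Lgals1, all WT HFD arrays lay above the other 9 arrays, but by a smaller margin, 0.34 between the nearest KO and WT arrays on HFD. KO minus WT was -0.50 ± 0.09 on HFD (adjusted p = 0.00314) and 0.02 ± 0.09 on chow (95% interval -0.17 to 0.21). HFD minus chow was 0.03 ± 0.09 in KO (95% interval -0.16 to 0.22) and 0.55 ± 0.09 in WT (adjusted p = 0.00293). The interaction was -0.52 ± 0.12 (adjusted p = 0.0392), and when single arrays were left out it passed only without KO HFD 1 (0.038) or without WT chow 1 (0.0497). Without any one of the other 10 arrays its adjusted p lay between 0.0576 without WT HFD 3 and 0.0973 without KO chow 3. The groups below WT HFD did not differ from each other beyond their spread, with means of 7.07 ± 0.08 in KO HFD, 7.04 ± 0.09 in KO chow and 7.02 ± 0.07 in WT chow (SD, n = 3).

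Lgals4, Lgals8 and Lgals9 are the tandem-repeat members. Lgals4 encodes galectin-4, known from the intestinal epithelium. Its signals were 9.0, 8.39 and 8.62 in KO HFD livers, 8.24, 8.03 and 8.03 in WT HFD livers, 8.51, 8.97 and 8.97 in KO chow livers, and 8.82, 8.78 and 8.85 in WT chow livers. Here the WT HFD arrays were the lowest of the 12. KO minus WT was 0.57 ± 0.16 on HFD (adjusted p = 0.0376) and 0.00 ± 0.16 on chow (95% interval -0.34 to 0.34). HFD minus chow was -0.15 ± 0.16 in KO (95% interval -0.49 to 0.19) and -0.71 ± 0.16 in WT (adjusted p = 0.0176).

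Both Lgals4 calls were lost when some single arrays were left out. The KO against WT call on HFD was lost without KO HFD 1 (adjusted p = 0.117), KO HFD 3 (0.072), WT HFD 1 (0.0538), WT HFD 2 (0.11), WT HFD 3 (0.113), WT chow 2 (0.0503) or WT chow 3 (0.0502). The diet call in WT was lost without WT HFD 2 or WT HFD 3 (0.0659 each), WT chow 1 (0.0522) or WT chow 3 (0.0634). The interaction, 0.56 ± 0.22, did not pass (adjusted p = 0.205). Among 5 other markers of intestinal epithelium 0 passed in any comparison. Vil1, Cdh17 and Sis lay under the background level of 5.61, and the mean over the 5 was 6.12 to 6.30 in KO HFD, 6.04 to 6.12 in WT HFD, 6.04 to 6.16 in KO chow and 6.08 to 6.23 in WT chow.

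Lgals8 encodes galectin-8, which binds glycans exposed on damaged vesicles and recruits the autophagy machinery to them. Its signals were 11.70, 11.90 and 11.73 in KO HFD livers, 11.27, 11.23 and 11.23 in WT HFD livers, 11.69, 11.65 and 11.54 in KO chow livers, and 11.69, 11.51 and 11.40 in WT chow livers. The WT HFD arrays were again the lowest, and the nearest KO array on HFD was 0.43 higher. KO minus WT was 0.53 ± 0.09 on HFD (adjusted p = 0.00331) and 0.09 ± 0.09 on chow (95% interval -0.11 to 0.29). HFD minus chow was 0.15 ± 0.09 in KO (95% interval -0.05 to 0.36) and -0.29 ± 0.09 in WT (adjusted p = 0.0888). The interaction was 0.44 ± 0.13 (adjusted p = 0.0966), so the genotype effects of Lgals8 on the 2 diets were not shown to differ. The promoters of Lgals3, Lgals4 and Lgals8 printed above all held CCAAT letters, as did 37.4% of all promoters in the RefSeq table. Whether these letters bear on the differences was not tested.

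Lgals9 encodes galectin-9, a ligand of Tim-3, which is a receptor found on T cells among others. Its signals were 13.30, 13.25 and 13.22 in KO HFD, 13.08, 13.15 and 13.20 in WT HFD, 13.14, 13.23 and 13.22 in KO chow, and 13.24, 13.14 and 13.31 in WT chow. These lie near the top of the scale, where 14.36 was the highest value on any array and where an array may also compress differences. No comparison of Lgals9 passed. KO minus WT was 0.12 on HFD (95% interval -0.05 to 0.28) and -0.03 on chow (-0.20 to 0.14).

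Lgals3bp encodes a secreted glycoprotein that binds galectin-3 and is not itself a lectin of the family. Its signals were 11.21, 11.20 and 11.03 in KO HFD livers, 11.33, 11.40 and 11.42 in WT HFD livers, 10.88, 10.88 and 11.27 in KO chow livers, and 11.29, 10.93 and 11.22 in WT chow livers. KO minus WT was -0.23 ± 0.12 on HFD (95% interval -0.50 to 0.04, adjusted p = 0.287) and -0.14 ± 0.12 on chow (95% interval -0.41 to 0.13). HFD minus chow was 0.14 ± 0.12 in KO and 0.23 ± 0.12 in WT, and neither passed. On its second, dimmer probe set the KO minus WT difference on HFD was -0.35 ± 0.15 (adjusted p = 0.176, with every probe set tested as a row of its own).

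On HFD the KO and WT arrays did not overlap for 6 of the 7 members, all but Lgals2, and such a separation was found for 28.6% of all genes. Of these, Lgals9 and Lgals3bp did not pass. The KO arrays lay above by 0.02 at the nearest for Lgals9, and below by 0.12 for Lgals3bp. Between KO and WT livers on chow 0 of 7 members passed and 1 had an unadjusted p under 0.05, Lgals1. In that comparison 0.00902% of all genes passed, all of them higher in KO, and 1558 genes had an unadjusted p under 0.05. Between HFD and chow in KO livers 0 of 7 passed, again with Lgals1 alone under an unadjusted p of 0.05, against 0.243% of all genes, 0.0857% higher and 0.158% lower on HFD. The diets did not overlap in KO livers for 1 member, Lgals8, by 0.01 at the nearest, and for 13.8% of all genes. Between HFD and chow in WT livers 2 members rose, 1 fell and 4 did not pass, against 6.96% of all genes, 4.02% higher and 2.94% lower on HFD, and 5 of 7 members did not overlap between diets, against 26.4% of all genes. The smallest of these 5 gaps was 0.04, for Lgals3bp. In the interaction 0 members were higher and 2 lower, against 3.53% of all genes, 1.43% higher and 2.1% lower.

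**Figure D2:**
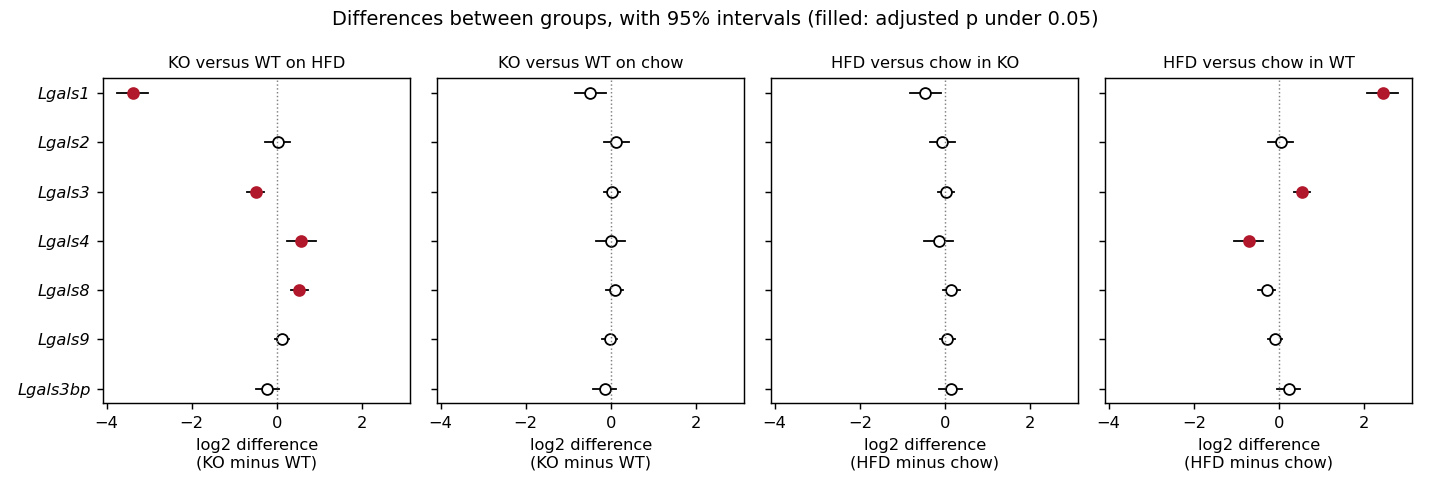
Log2 differences (x axis) of the 7 members (rows) in 4 comparisons, with 95% intervals and filled points for an adjusted p under 0.05. Lgals1 lies at -3.38 for KO minus WT on HFD and at 2.44 for HFD minus chow in WT, and no point is filled for chow or within KO.

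The genes whose values over the 12 arrays were most like those of a member were found by the root mean square (RMS) difference of log2 signals, each gene centred on its own mean. For Lgals1 these were Gbp10, a guanylate-binding protein gene, with an RMS difference of 0.274, Thrsp, a regulator of lipogenesis (0.407), Clec2h (0.432), Aacs, the acetoacetyl-CoA synthetase (0.478), and Sult1c2, a sulfotransferase (0.555). Their KO minus WT differences on HFD were -3.07, -3.72, -3.02, -2.34 and -2.04 in the same order. For Lgals3 they were the cathepsin gene Ctso (0.0491), the lysosomal thioesterase gene Ppt1 (0.0699), Crip1 (0.0712), the tubulin cofactor gene Tbcb (0.0756) and Bcl2l1, an inhibitor of cell death (0.0785). These 5 had KO minus WT differences of -0.62 to -0.50 on HFD and -0.01 to 0.05 on chow.

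For Lgals4 the most alike genes were Dot1l, a histone methyltransferase (0.134), Atg16l2 (0.158), Denn2b (0.173), Gramd3 (0.174) and the small nucleolar RNA Snord65 (0.174). For Lgals8 they were Cpt1a, the entry step of mitochondrial fatty acid oxidation (0.0534), Clint1, a vesicle coat adaptor (0.0611), Tmem135 (0.0649), Hykk (0.0655) and the tetraspanin gene Tspan31 (0.071). The 5 genes alike to Lgals8 were 0.42 to 0.59 higher in KO than in WT on HFD. All were taken from the genes above the median signal, and the same arrays set all profiles, so the likeness is a description.

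**Figure D3:**
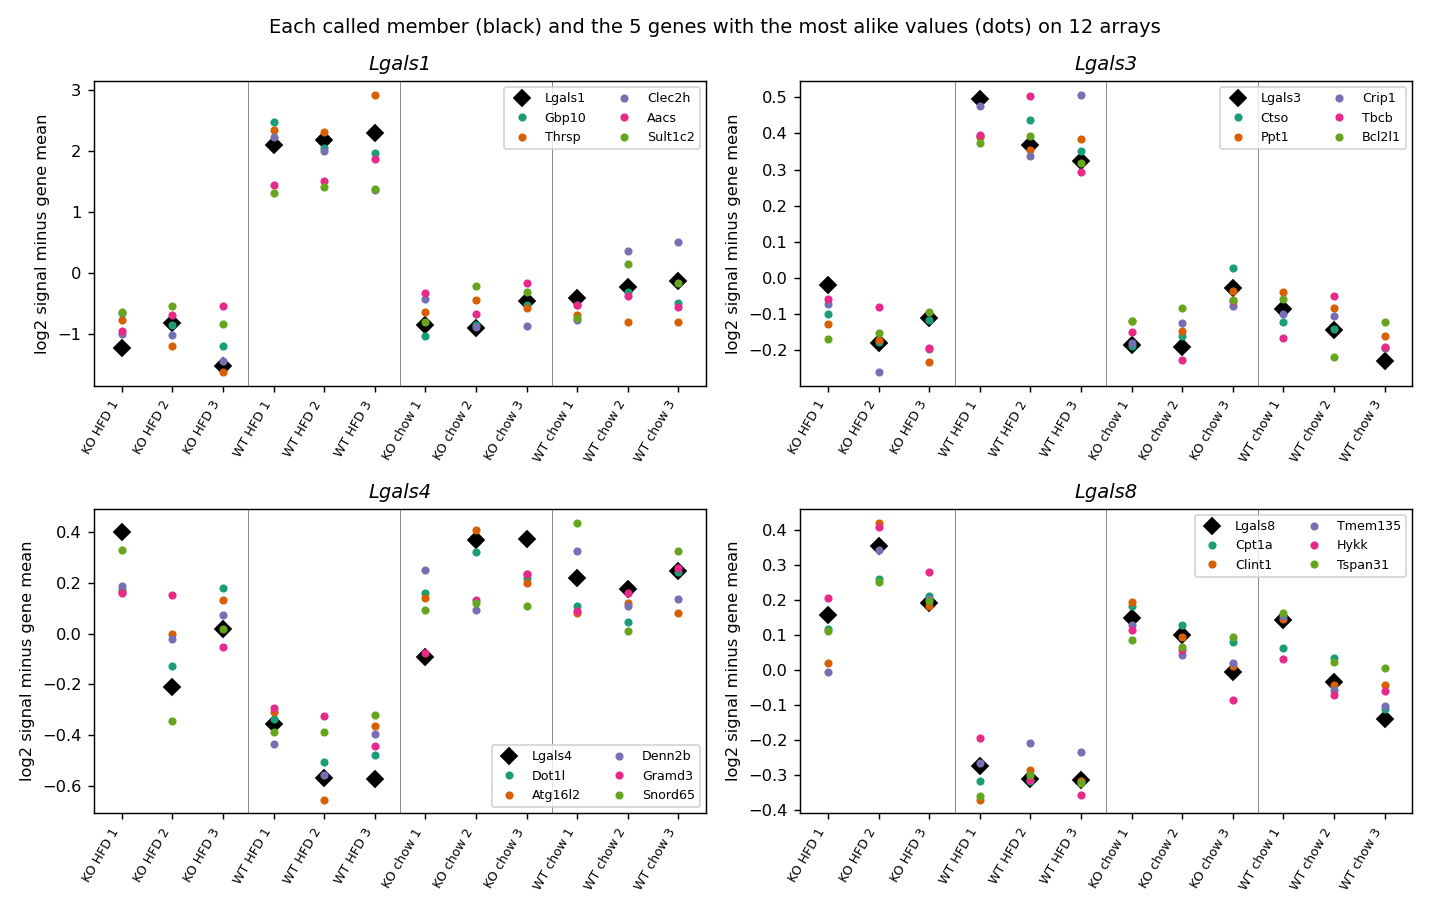
Log2 signal minus the gene's mean (y axis) on each of the 12 arrays (x axis) for each member that passed in some comparison (black diamonds) and its 5 most alike genes (coloured dots). In the Lgals1 and Lgals3 panels the 3 WT HFD arrays are the highest for all genes, and in the Lgals4 and Lgals8 panels they are the lowest for all genes but Snord65.

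Markers of other liver cell types were read beside these results, and the lists differed in how many members passed. In bulk liver, fewer cells of a type and less RNA per cell cannot be told apart. Of 8 measured markers of recruited and lipid-associated macrophages 6 fell in KO HFD against WT HFD livers and 0 rose. Over all genes 6.62% fell and 3.89% rose in this comparison. In WT livers 6 of the markers rose and 1 fell on HFD against chow, and 4.02% of all genes rose and 2.94% fell. The mean log2 signal of the list was 6.24 to 6.49 in KO HFD, 6.98 to 7.42 in WT HFD, 6.28 to 6.34 in KO chow and 6.24 to 6.46 in WT chow. Itgax and Ccr2 of this list lay under the background level. Mmp12, a macrophage elastase, fell by 1.73 ± 0.13 in KO on HFD, and Gpnmb fell by 1.41 ± 0.21. Cd9 of the same list went the other way, at 0.34 ± 0.10 for KO minus WT on HFD (adjusted p = 0.0564). It was the marker that fell on HFD in WT livers, by 0.47 ± 0.10 (adjusted p = 0.0178).

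For the counts that follow, 6.62% of all genes were lower and 3.89% higher in KO HFD than in WT HFD livers. In WT livers 4.02% of all genes were higher and 2.94% lower on HFD than on chow. Of 8 stellate cell markers 3 fell in KO HFD against WT HFD livers and 0 rose, namely Col1a1 (-1.10 ± 0.13), Col3a1 (-1.24 ± 0.14) and Lrat (-0.93 ± 0.10), and in WT livers 3 rose on HFD against chow. The other 5 stellate markers did not pass for KO against WT on HFD, and ran from -0.32 (Lum) to -0.06 (Dcn). The list averaged 8.30 to 8.47 in KO HFD, 8.77 to 9.06 in WT HFD, 8.37 to 8.51 in KO chow and 8.18 to 8.34 in WT chow. Of 8 Kupffer cell markers 0 passed in any comparison, and their mean was 9.13 to 9.37 in KO HFD, 9.30 to 9.81 in WT HFD, 9.04 to 9.41 in KO chow and 9.05 to 9.37 in WT chow. Still, the median KO minus WT difference on HFD was -0.32 over the Kupffer list, beside -0.26 over the stellate list. The lack of calls is therefore not a sign that the Kupffer list was unchanged. Of 6 markers of sinusoidal endothelium 2, Lyve1 and Cdh5, fell in KO HFD against WT HFD livers and 0 rose. In WT livers 0 rose and 1, Kdr, fell on HFD against chow, by 0.41 ± 0.11 (adjusted p = 0.0446), and its KO minus WT difference on HFD was 0.33 ± 0.11 (adjusted p = 0.078). Kdr is also on the list of galectin partners. The mean of the endothelial list was 9.69 to 9.84 in KO HFD, 9.99 to 10.02 in WT HFD, 9.84 to 9.93 in KO chow and 9.69 to 10.09 in WT chow. Of the 5 hepatocyte markers 1, Serpina1a, was higher in KO HFD than in WT HFD livers, by 0.51 ± 0.09. The part of these cells in the differences of Lgals1, Lgals3, Lgals4 and Lgals8 was not tested.

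**Figure D4:**
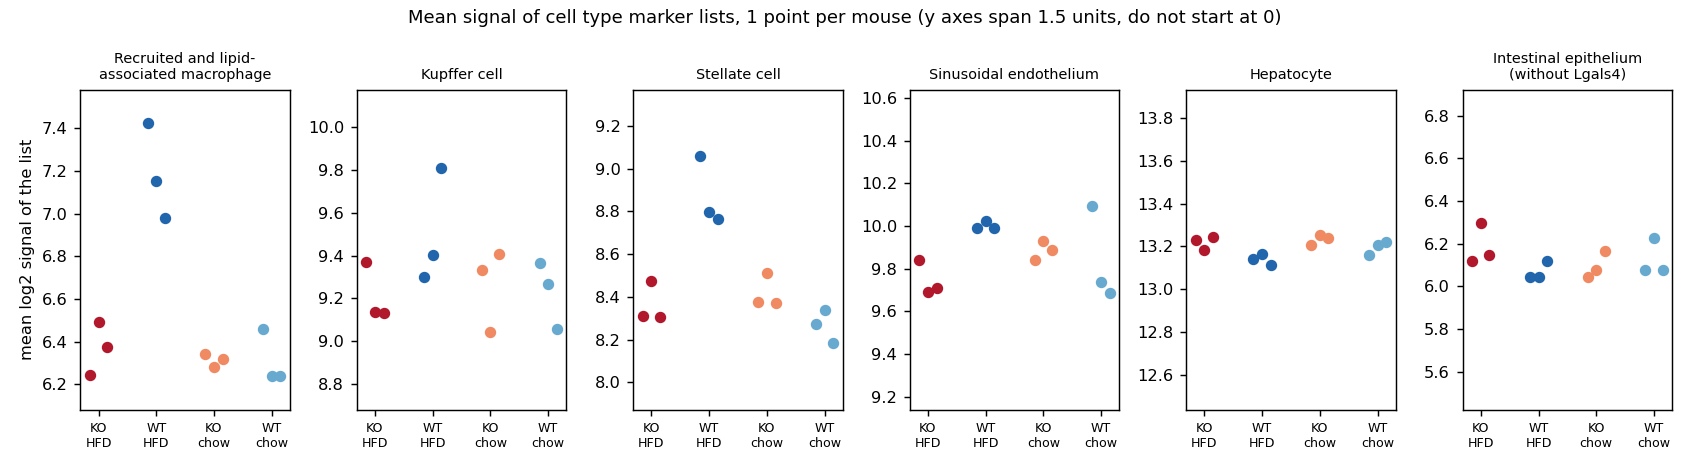
Mean log2 signal (y axis, the same span in every panel) of 6 marker lists on each array in the 4 groups (x axis), 1 point per mouse. For the recruited macrophage list and the stellate cell list all WT HFD arrays, at 6.98 to 7.42 and 8.77 to 9.06, lie above all other arrays.

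Galectins act through glycans, and the enzymes that build, cap or trim the galactose-ending chains, among them the sialidase genes Neu1 and Neu3, were followed as a list of 30, of which 29 were measured. In KO HFD against WT HFD livers 9 fell, 0 rose and 20 did not pass, so that 31.0% of the list was lower, against 6.62% of all genes. The median difference of the list was -0.11, and that of all genes was 0.00. The mean of the list was 7.75 to 7.81 in KO HFD and 7.95 to 7.96 in WT HFD. On chow it was 7.85 to 7.92 in KO and 7.88 to 7.92 in WT. For this list the KO HFD arrays were thus the lowest and the WT HFD arrays the highest. St6gal1, whose alpha2,6-linked sialic acid blocks galectin-1 binding, fell by 0.94 ± 0.10 (adjusted p = 0.000175). St3gal4, another sialyltransferase, fell by 0.59 ± 0.11 (0.00389), Mgat4b, an N-glycan branching enzyme, by 0.51 ± 0.09 (0.00355), and the Golgi mannosidase gene Man2a2 by 0.48 ± 0.09 (0.00362). At the other end of the list, St3gal6 stood at 0.33 ± 0.13 (adjusted p = 0.135). Mgat4a, B3gnt5 and Gcnt1 of this list lay under the background level. Of these, Gcnt1 was among the 9 that fell, at -0.38 ± 0.10 (adjusted p = 0.0289).

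On chow 0 of the 29 glycan enzymes passed between KO and WT, and 0 passed between HFD and chow in KO livers. In WT livers 3 were higher on HFD than on chow, and 4.02% of all genes were higher. These 3, named here because they passed, were St6gal1 (0.55 ± 0.10), St3gal4 (0.64 ± 0.11) and Mgat5 (0.43 ± 0.10), the branching enzyme whose products galectin-3 is known to crosslink. In the interaction 3 enzymes were lower, St6gal1, St3gal4 and Gcnt2, and 0 were higher. This was 10.3% of the list lower, against 2.1% of all genes, and 1.43% of all genes were higher. For Gcnt2, HFD minus chow was -0.56 ± 0.13 in KO (adjusted p = 0.133) and 0.28 ± 0.13 in WT (0.238). The median HFD minus chow difference of the list was -0.09 in KO and 0.02 in WT. In KO the list ran from B4galt5 at -0.76 ± 0.16 (adjusted p = 0.0917) to St3gal3 at 0.20 ± 0.09 (0.553). B4galt5 stood at -0.03 ± 0.16 in WT.

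**Figure D5:**
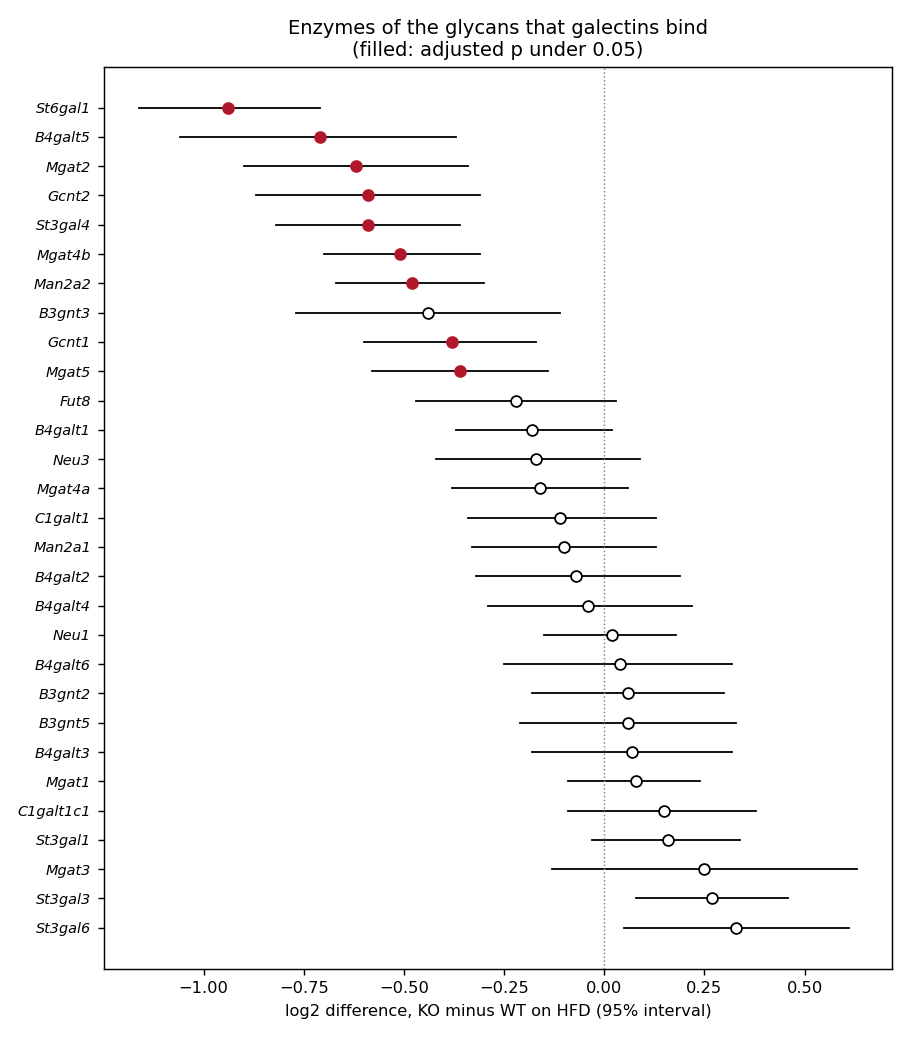
KO minus WT log2 difference on HFD (x axis) with its 95% interval for 29 enzymes that build, cap or trim galectin ligands (rows, sorted by difference), filled for an adjusted p under 0.05. The 9 filled points all lie below 0, with St6gal1 at -0.94.

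Of 30 listed ligands, receptors and cytosolic partners of galectins 29 were measured. In KO HFD against WT HFD livers 1 rose and 4 fell, 17.2% of the list against 10.5% of all genes, with a median difference of 0.00. The one that rose was Egfr, the epidermal growth factor receptor, whose surface residence galectin binding is known to prolong, by 1.45 ± 0.12 (adjusted p = 2.86e-05). Those that fell were the adhesion molecule gene Vcam1 (-0.94 ± 0.20), the leukocyte phosphatase gene Ptprc (-0.57 ± 0.14), the lysosomal membrane gene Lamp1 (-0.30 ± 0.07) and, named because it passed, the thrombospondin gene Thbs1 (-0.67 ± 0.18). The count of 5 was 2 without KO HFD 2 and 3 without WT HFD 1 or without WT HFD 3. In WT livers Egfr fell by 1.13 ± 0.12 on HFD against chow and Vcam1 rose by 1.01 ± 0.20, among 3 higher and 3 lower partners. Together these were 20.7% of the list, against 6.96% of all genes, 4.02% higher and 2.94% lower. Havcr2, which encodes the galectin-9 receptor Tim-3 and had a signal under the background level, rose by 0.62 ± 0.17 on HFD in WT livers (adjusted p = 0.0464). It stood at -0.34 ± 0.17 for KO minus WT on HFD (adjusted p = 0.253). On chow 0 of the 29 partners passed between KO and WT.

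Of 5 other galectin and galectin-related genes looked for, 4 were measured with a single symbol, Lgals7, Lgals12, Lgalsl and Grifin, and Lgals6 was not analysed here. None of the 4 passed in any of the 5 limma comparisons. One, Lgals12, had an unadjusted p under 0.05, for KO against WT on HFD (0.0272) and in the interaction (0.0471). Lgals12 encodes the galectin of adipocytes, and it lies on the same chromosome as Ahnak, with 37 protein-coding genes between them in RefSeq. Its signals were 4.78 to 5.22 in KO HFD, 4.53 to 4.72 in WT HFD, 4.60 to 4.87 in KO chow and 4.74 to 4.98 in WT chow, all within the range of background. Its KO minus WT difference was 0.31 ± 0.13 on HFD (adjusted p = 0.144) and -0.08 ± 0.13 on chow. Lgals7, the galectin of stratified epithelia and the gene next to Lgals4, stood at -0.06 on HFD (95% interval -0.26 to 0.14). Grifin, a lens protein gene, stood at 0.12 (-0.14 to 0.39) and Lgalsl at 0.11 (-0.17 to 0.39).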

How the data were processed

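Liver RNA of 12 mice was labelled with biotin, using an Affymetrix kit, and hybridised to 1 array per mouse (per the labels). The values are log2 signals as deposited. Per the submitters' processing notes, the authors used oligo, in a version and with settings not given in the sources used here. No further scaling or filter was applied, and 0 values were missing. Of 41345 probe sets 23521 had a single symbol in the array annotation and represented 22180 genes, 1814 had several symbols and 16010 had no name here. One linear model of all 4 groups was fitted in limma 3.58.1 (lmFit and eBayes under R 4.3.3), with Benjamini-Hochberg adjustment over all genes within each of 5 comparisons. Differences are given with the SE or the 95% interval of the fit. The code was tested on simulated data.

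The members and lists (other galectins, partners, glycan enzymes, cell type markers) were chosen with earlier results of these data known. Named genes were the members, the other galectins, up to 4 list members with the smallest p for KO against WT on HFD, those at a list's extremes, and the 5 most alike genes of each member that passed. The files give no array batch. The number of arrays limits the precision.

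The alternatives tried were array weights, quantile normalization or median centring, trend and robust options of eBayes, the replicate number as a block, genes above the median signal alone, other uses of probe sets, a fit of only the arrays compared, a minimum change of 2-fold, and each array left out in turn.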

Additional observations from a re-analysis of the deposited data

Results flagged for a closer look

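The genotype effects of 2 members differed between the diets by the interaction term of the limma fit. For Lgals1 the KO minus WT difference on HFD minus that on chow was -2.90 (adjusted p = 6.52e-05), with the WT HFD arrays above the other 9 arrays. For Lgals3 it was -0.52 (adjusted p = 0.0392), and this call was lost without any one of 10 of the 12 arrays.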

How the results depend on the processing

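The Lgals1 results (KO against WT on HFD, HFD against chow in WT, and the interaction) passed under every alternative run. So did Lgals3 and Lgals8 for KO against WT on HFD and Lgals3 for HFD against chow in WT, except where a change of at least 2-fold was required. That requirement left 1 member, Lgals1, of 4 for KO against WT on HFD, 1 of 3 for HFD against chow in WT and 1 of 2 in the interaction, 0 of 9 glycan enzymes lower and 1 of 5 partners. Same-numbered mice did not deviate together: their residuals correlated between -0.06 and 0.08 in 18 pairs, so the numbers were not taken to pair the mice. With the replicate block the interaction count was 1, Lgals3 having an adjusted p of 0.0615, and Lgals4 for KO against WT on HFD had 0.0633. With quantile normalization the interaction count was also 1 (Lgals3, 0.0543). Lgals4 on HFD also did not pass with array weights (0.0546) or with only the arrays compared (0.0676). Lgals8 passed for HFD against chow in WT and in the interaction with trend and robust settings (0.0251 and 0.0253) and in tests of the genes above the median signal (0.0325 and 0.0342). The causes were not tested. The count of partners was 8 with trend and robust settings, with quantile normalization and above the median signal, where 23 were tested. The alternatives for both lists were chosen after seeing the data.

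Leaving out 1 array at a time gave 3 to 4 members for KO against WT on HFD, 2 to 3 for HFD against chow in WT, 1 to 2 in the interaction, and 0 for the other comparisons. It gave 6 to 9 glycan enzymes lower and 2 to 6 partners. Some members that did not pass changed sign. For Lgals2 the values ran from -0.07 to 0.16 for KO against WT on HFD, from -0.16 to 0.07 for HFD against chow in KO, from -0.05 to 0.13 in WT, and from -0.20 to 0.04 in the interaction. For Lgals3 they ran from -0.03 to 0.05 for KO against WT on chow and from -0.01 to 0.08 for HFD against chow in KO, for Lgals9 from -0.08 to 0.01 for KO against WT on chow, and for Lgals3bp from -0.16 to 0.04 in the interaction. Lgals2 was not tested among genes above the median signal. Over all genes, 2331 passed for KO against WT on HFD, against 295 with a 2-fold minimum and 1506 without WT HFD 3. For HFD against chow in WT 1543 passed, against 206 with that minimum and 815 to 935 without WT HFD 1, 2 or 3 or WT chow 3. In the interaction 783 passed, against 1201 with trend and robust settings, 1394 above the median signal, 275 with that minimum and 432 to 489 without KO HFD 2, KO chow 2 or 3, WT HFD 2 or 3, or WT chow 3. For HFD against chow in KO 54 passed, against 124 in the first 2 of these settings, 21 with only the arrays compared, 28 with that minimum or without KO chow 2, and 35 without KO chow 3. For KO against WT on chow 2 passed, against 0 to 19 under the alternatives, and with quantile normalization 2 of 3 were higher. Quantile normalization and median centring shifted the median of all genes by under 0.1 in every comparison.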

Other observations

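Markers of further cell types gave few calls. Of 7 neutrophil markers 0 passed in any of the 5 comparisons, and 5 of them, S100a8, S100a9, Ly6g, Mpo and Retnlg, lay under the background level. Their list averaged 4.86 to 5.0 in KO HFD, 5.1 to 5.18 in WT HFD, 4.92 to 5.09 in KO chow and 4.92 to 5.09 in WT chow. The WT HFD arrays were the highest only by a narrow margin, with 5.099 in WT HFD 3 and 5.091 in KO chow 1. Of 7 T and NK cell markers 1, Cd4, was higher in KO HFD than in WT HFD livers, by 0.80 ± 0.18 (adjusted p = 0.0129). Over all genes 3.89% were higher in this comparison. Cd3d, Cd3e and Cd3g, which all T cells use, did not pass. Cd3d, Cd8a and Klrb1c of this list lay under the background level. None of 3 B cell markers, 5 cholangiocyte markers, 4 adipocyte markers or 3 exocrine pancreas markers passed in any of the 5 comparisons. Adipoq and Lep of the adipocyte list lay under the background level, while Plin1 and Retn of that list did not. Prss1 and Cpa1 of the pancreas list lay under it, while Cela1 did not.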
